A study of Schizosaccharomyces pombe with 5 samples.

Results

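The genes of amino acid biosynthesis in fission yeast, *Schizosaccharomyces pombe*, were followed in cells treated with diamide (DIA) or hydroxyurea (HU). Members were chosen by a rule on the gene name, which was set with earlier results of these data known. They are all genes named arg, lys, his, leu, ilv, trp, aro, tyr, pro, gdh, glt or gln followed by a number, and the rule found 49 of the 5134 genes tested. Cells of the wild-type strain 972 h- were compared in 5 conditions. DIA30 and DIA60 are cells after 30 and 60 min of DIA at 3 mM, HU60 and HU150 are cells after 60 and 150 min of HU at 75 mM, and the control received no drug. DIA is a thiol oxidant. HU inhibits ribonucleotide reductase, and the study reports that it also causes oxidative and thiol stress. The earlier sample of each drug was taken before Nuclear Caps (expanded perinuclear endoplasmic reticulum with clustered nuclear pores) were seen, and the later one at their onset. The standard medium of the study is the rich medium YES. The labels give the control no time, so the effect of a drug and that of further growth cannot be told apart. In bulk RNA, fewer cells with a transcript and less transcript per cell cannot be told apart either.

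Each condition was sequenced as 3 repetitions, 15 libraries in all, with 24116729 to 24274040 read pairs per library. The deposited tables give, for each gene, a log2 fold change against control with its standard error (SE) and an adjusted p from DESeq2, and 1 mean normalized count over all libraries, with no value per library. Levels per condition were rebuilt from that mean and the 4 fold changes, and they carry no spread of their own. A normalized count is not divided by gene length, so levels are compared only within a gene. All 49 members had a p, and in 48 the mean count was 50 or more. The exception was trp663, at 31. The SE of a member's log2 fold change lay between 0.03 and 0.10 for these 48 genes. A member is called higher or lower at an adjusted p below 0.05, and raised or lowered where the fold change was also at least 2-fold. The median log2 fold change of all genes was within 0.01 of 0 in each comparison. The label h- is the M mating type. Of the listed mating-type markers, the M genes mfm1, mfm2, mfm3, mam2, mam1 and sxa2 had mean normalized counts of 3, 37, 45, 69, 762 and 446, and the P genes map2, map3, sxa1 and map4 had 28, 163, 9984 and 404. Both sets were thus detected in these vegetative cells, and the levels do not check the label.

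Yeasts make amino acids from a few central metabolites. Glutamate and glutamine carry the nitrogen, and 2-oxoglutarate, pyruvate, erythrose 4-phosphate and phosphoribosyl pyrophosphate give the carbon frames. Several of these enzymes need an iron-sulfur cluster. They are homoaconitate hydratase (lys2) in lysine synthesis, 3-isopropylmalate dehydratase (leu2) in leucine synthesis, dihydroxy-acid dehydratase (ilv3) in isoleucine and valine synthesis, and glutamate synthase (glt1). When amino acids run short, eIF2 alpha kinases such as Gcn2 slow translation and, in fission yeast, the GATA factor Fil1 drives many of the synthesis genes. By annotation 45 of the members were counted as amino acid synthesis genes. They include gdh2, whose NAD-dependent enzyme releases ammonium from glutamate and which is also listed under amino acid breakdown. The other 4 carry a matching name only. They are arg82 (an inositol polyphosphate kinase), leu5 (a coenzyme A transporter) and trp663 and trp1322 (TRP-like ion channel proteins).

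More members were higher than lower against control in each of the treatments, mostly by less than 2-fold. In DIA30, 36 of 49 members were higher (73.5%, beside 29.1% of all genes tested) and 4 were lower (8.16%, beside 28.0%), with a median log2 fold change of 0.29. In DIA60, 34 were higher (69.4%, beside 36.4% of all genes) and 11 lower (22.4%, beside 35.3%), with a median of 0.22. In HU60, 22 were higher (44.9%, beside 24.6%) and 10 lower (20.4%, beside 22.2%), with a median of 0.08. In HU150, 33 were higher (67.3%, beside 33.1%) and 7 lower (14.3%, beside 31.7%), with a median of 0.27. The share of lower members in HU60 was close to that of all genes. The 4 comparisons share their control libraries.

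**Figure D1:**
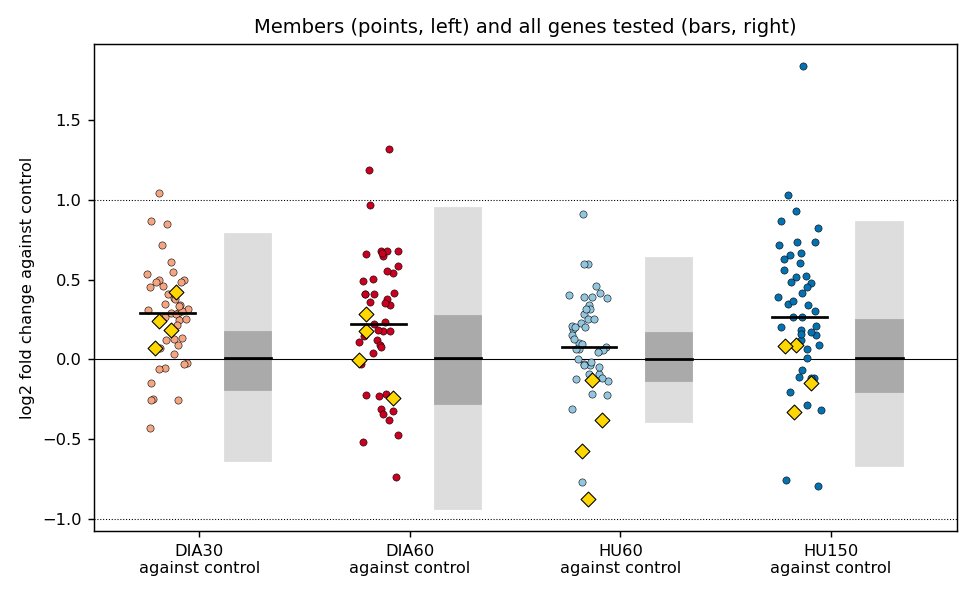
Log2 fold changes of the 49 members (points at the left of each pair, with the iron-sulfur enzyme genes as yellow diamonds) and of all genes tested (bars at the right, dark for the middle 50% and light for the 5th to 95th percentile) in each treatment against control. Black lines are medians and dotted lines mark 2-fold; the members' medians are 0.29, 0.22, 0.08 and 0.27, and in HU60 the diamonds lie below 0.

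Few members passed 2-fold. The homocitrate synthase gene lys4 was the 1 member raised in DIA30 (1 of 49, beside 3.04% of all genes), at a log2 fold change of 1.04. In DIA60 the members raised were gdh1 and arg5 (2 of 49, beside 4.19%), at 1.32 and 1.19. No member was raised in HU60 (0 of 49, beside 2.08%; 0 also at an unadjusted DESeq2 p below 0.05). In HU150 gdh2 and arg12 were raised (2 of 49, beside 4.09%), at 1.84 and 1.03. Just outside the threshold were arg4 in DIA60 at 0.97, arg5 in HU150 at 0.93 and gdh2 in HU60 at 0.91. No member was lowered 2-fold in any comparison (0 of 49, beside 1.69% of all genes in DIA30 and 3.95% in DIA60, 0.195% in HU60 and 1.69% in HU150; 0 also at an unadjusted DESeq2 p below 0.05). The lowest values were -0.88 for glt1 in HU60 and -0.80 for his1 in HU150. The shares of members past 2-fold were thus under or close to those of all genes.

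**Figure D2:**
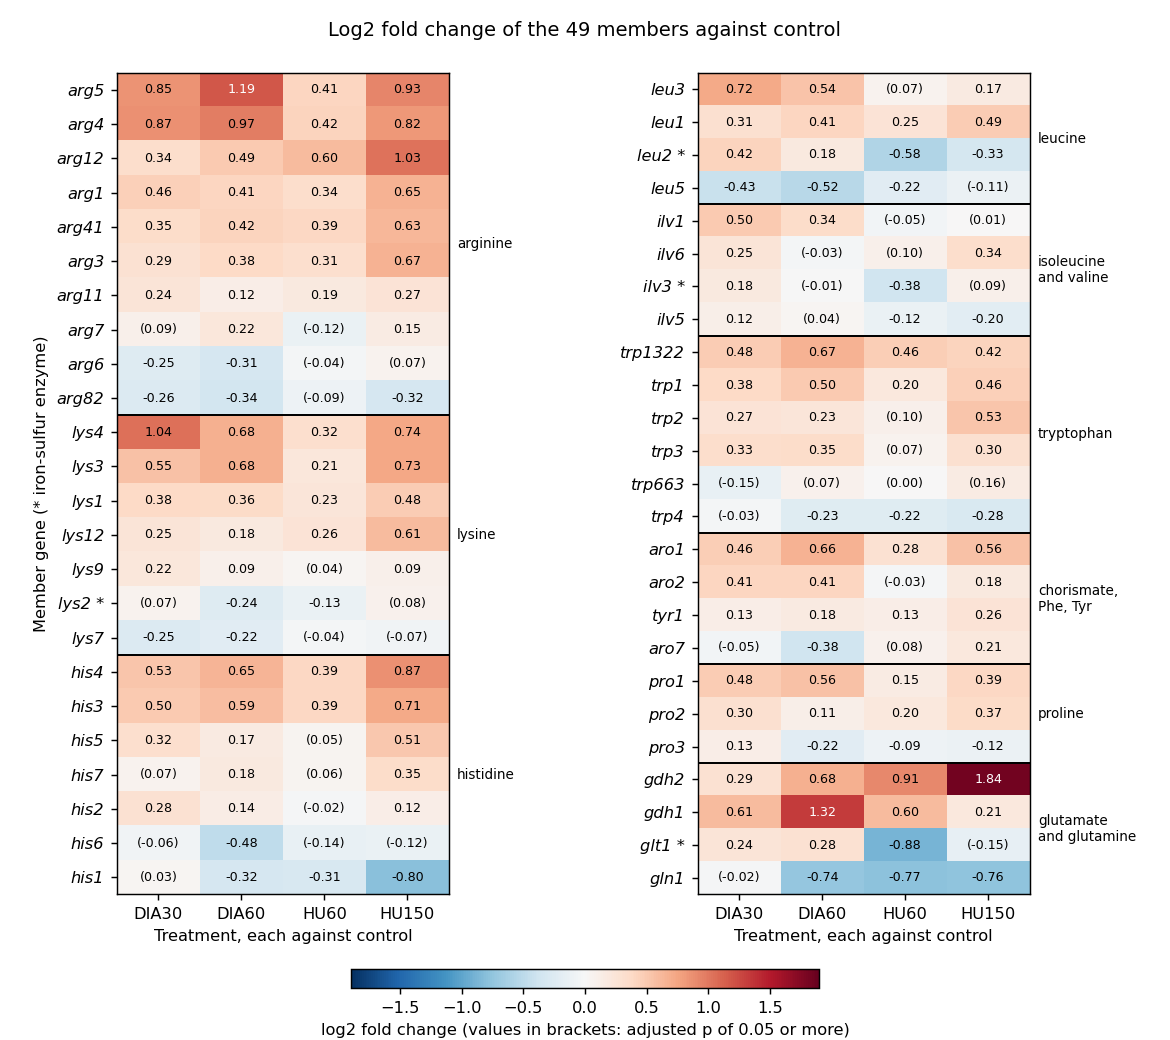
Log2 fold change of each member (rows, grouped by pathway) in each treatment against control (columns), with red for higher and blue for lower and values in brackets where the adjusted p was 0.05 or more. Most cells are a light red, the darkest are gdh2 in HU150 at 1.84 and gdh1 in DIA60 at 1.32, and glt1 in HU60 (-0.88) and gln1 are the bluest of the glutamate block.

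In arginine synthesis most genes after the first step were higher, and the gene of the first step was not. Carbamoyl phosphate, which carries nitrogen into arginine, is made by a synthase with the subunits Arg5 and Arg4. The mRNA of arg5 (SPBC56F2.09c) stood at 9253 normalized counts in DIA30 and 11666 in DIA60, 6794 in HU60 and 9754 in HU150, against 5125 in control. Its log2 fold change was 1.19 in DIA60 (SE 0.07, adjusted p = 2.02e-72, DESeq2) and 0.41 in HU60. The mRNA of arg4 stood at 24331, 26037, 17780 and 23609 in the same order of treatments, against 13329 in control, which is 0.97 in DIA60 and 0.42 in HU60. Both subunit genes were thus highest in DIA60, and among the treatments lowest in HU60.

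The argininosuccinate synthase gene arg12 had another order. It stood at 13181 in DIA30 and 14658 in DIA60, 15776 in HU60 and 21306 in HU150, against 10427 in control. Its log2 fold change was 1.03 in HU150 (SE 0.07, adjusted p = 2.5e-53, DESeq2) and exceeded that in DIA60 by 0.54 (SE 0.09, adjusted p = 3.03e-08, z-test). The ornithine carbamoyltransferase gene arg3 rose by 0.29 to 0.67 across the treatments, and the acetylornithine aminotransferase gene arg1 by 0.34 to 0.65. The gene arg11, whose protein carries both acetylglutamate kinase and the next reductase, rose by 0.12 to 0.27. The acetylglutamate synthase gene arg6, of the first step, was lower in both DIA treatments, at -0.25 and -0.31, and had -0.04 in HU60 and 0.07 in HU150, which did not pass the test. Argininosuccinate lyase has 2 genes here, arg41 and arg7. Of these arg41 rose by 0.35 to 0.63 and arg7 by 0.22 in DIA60 and 0.15 in HU150. Genes of 1 enzyme may share reads, so the split between arg41 and arg7 is uncertain. Of the 10 genes with an arg name, 7 were higher in DIA30 (2 lower), 8 in DIA60 (2 lower), 7 in HU60 and 8 in HU150 (1 lower). Of all genes tested, 29.1%, 36.4%, 24.6% and 33.1% were higher and 28.0%, 35.3%, 22.2% and 31.7% lower in the order DIA30, DIA60, HU60 and HU150. The inositol polyphosphate kinase gene arg82 is one of the lower ones in DIA30, DIA60 and HU150.

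In lysine synthesis, which in fungi runs through 2-aminoadipate, the first gene moved most. The homocitrate synthase gene lys4 (SPBC1105.02c) stood at 47521 normalized counts in DIA30 and 36914 in DIA60, 28712 in HU60 and 38448 in HU150, against 23064 in control. The level in DIA30 was 2.06-fold that of the control (log2 fold change 1.04, SE 0.06, adjusted p = 7.96e-71, DESeq2). In DIA60 it was lower than in DIA30 by 0.36 on the log2 scale (SE 0.08, adjusted p = 7.44e-05, z-test). The next enzyme, homoaconitate hydratase (lys2), needs an iron-sulfur cluster, and the log2 fold change of its mRNA lay between -0.24 and 0.08. The homoisocitrate dehydrogenase gene lys12, of the step after it, rose by 0.18 to 0.61, most in HU150. The aminoadipate-semialdehyde dehydrogenase gene lys1 rose by 0.23 to 0.48. Its partner lys7, whose enzyme attaches the phosphopantetheine arm to Lys1, was lower in both DIA treatments (-0.25 and -0.22). The saccharopine dehydrogenases of the last steps are encoded by lys9 and lys3. They differed in size, lys3 with 0.21 to 0.73 and lys9 with 0.04 to 0.22, of which 0.04 (HU60) did not pass the test. Of the 7 lysine genes, 5 were higher in DIA30 (1 lower), 5 in DIA60 (2 lower), 4 in HU60 (1 lower) and 5 in HU150. The 2 lower genes in DIA60 (28.6%) stand beside 35.3% of all genes, and the 1 lower gene in DIA30 and in HU60 beside 28.0% and 22.2%. The higher ones stand beside 29.1% and 36.4% of all genes in DIA30 and DIA60, and 24.6% and 33.1% in HU60 and HU150.

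In histidine synthesis the gene of the first step was lower in DIA60, HU60 and HU150, while his3 and his4 rose. The gene his1 (SPAC25G10.05c) encodes ATP phosphoribosyltransferase, the first step, which in many organisms is the enzyme that histidine inhibits. It stood at 14424 normalized counts in DIA30 and 11280 in DIA60, 11374 in HU60 and 8121 in HU150, against 14109 in control. The lowest level, in HU150, is a log2 fold change of -0.80 (SE 0.04, adjusted p = 1.26e-80, DESeq2), and it was below that in HU60 by 0.49 (SE 0.06, adjusted p = 5.92e-15, z-test). The imidazoleglycerol-phosphate synthase gene his4 stood at 9314, 10093, 8452 and 11749 in the 4 treatments in the same order, against 6433 in control. It rose by 0.39 in HU60 and 0.87 in HU150. The aminotransferase gene his3 rose by 0.39 to 0.71. The dehydratase gene his5 rose by 0.32 in DIA30, 0.17 in DIA60 and 0.51 in HU150, and had 0.05 in HU60, which did not pass the test. The gene his7, of the steps after his1, was higher in DIA60 (0.18) and HU150 (0.35). The isomerase gene his6 was lower in DIA60 (-0.48). The histidinol dehydrogenase gene his2, of the last step, was higher in DIA30, DIA60 and HU150 by 0.12 to 0.28. Of the 7 histidine genes, 4 were higher in DIA30, 5 in DIA60 (2 lower), 2 in HU60 (1 lower) and 5 in HU150 (1 lower). The 2 higher genes in HU60 (28.6%) were close to the share of all genes, 24.6%, and the 2 lower in DIA60 (28.6%) stand beside 35.3%. The higher ones in the other treatments stand beside 29.1% of all genes in DIA30, 36.4% in DIA60 and 33.1% in HU150. The 1 lower gene in HU60 and in HU150 stands beside 22.2% and 31.7% of all genes.

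The synthesis genes of the branched-chain amino acids were higher in DIA30, and in HU60 leu1 alone was higher. Acetolactate synthase has a catalytic subunit, encoded by ilv1, and a regulatory subunit, encoded by ilv6. The mRNA of ilv1 rose by 0.50 in DIA30 and 0.34 in DIA60, and had -0.05 in HU60 and 0.01 in HU150, which did not pass the test. The mRNA of ilv6 rose by 0.25 in DIA30 and 0.34 in HU150. The reductoisomerase gene ilv5 had 0.12 in DIA30 and was lower in HU60 (-0.12) and HU150 (-0.20). The 4 ilv genes were all higher in DIA30 (beside 29.1% of all genes tested), with values of 0.12 to 0.50. In HU60, 2 of 4 were lower, beside 22.2% of all genes. In leucine synthesis, the 2-isopropylmalate synthase gene leu3 (SPBC3E7.16c), of the first step, stood at 19004 normalized counts in DIA30 and 16827 in DIA60, 12081 in HU60 and 12990 in HU150, against 11538 in control. Its rise of 0.72 in DIA30 (SE 0.04, adjusted p = 2.71e-67, DESeq2) stands beside 0.07 in HU60, which did not pass the test, and HU60 was below DIA60 by 0.48 (SE 0.06, adjusted p = 2.1e-15, z-test). The 3-isopropylmalate dehydrogenase gene leu1 rose by 0.25 to 0.49. The coenzyme A transporter gene leu5 had negative values in all treatments, of which -0.11 in HU150 did not pass the test.

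Of the aromatic genes, aro1 was higher in every treatment, and the genes after chorismate went different ways. The gene aro1 encodes a multifunctional protein for the middle steps of the shikimate path. It stood at 9628 normalized counts in DIA30 and 11034 in DIA60, 8515 in HU60 and 10309 in HU150, against 6989 in control, with its largest rise in DIA60, at 0.66. The chorismate synthase gene aro2 rose by 0.41 in both DIA treatments and by 0.18 in HU150. In HU60 it had -0.03, which did not pass the test and was below DIA60 by 0.44 (SE 0.06, adjusted p = 2.2e-11, z-test). Chorismate mutase (aro7) turns chorismate toward phenylalanine and tyrosine. Its mRNA was lower in DIA60 (-0.38) and higher in HU150 (0.21), and HU60 exceeded DIA60 by 0.46 (SE 0.08, adjusted p = 6.93e-08, z-test). The prephenate dehydrogenase gene tyr1 rose by 0.13 to 0.26. Toward tryptophan, the anthranilate synthase gene trp1 rose by 0.20 to 0.50 across the treatments, most in DIA60. The other anthranilate synthase gene, trp3, rose by 0.33 in DIA30, 0.35 in DIA60 and 0.30 in HU150. The tryptophan synthase gene trp2 rose by 0.27 in DIA30, 0.23 in DIA60 and 0.53 in HU150. In HU60 trp3 had 0.07 and trp2 0.10, which did not pass the test. The phosphoribosylanthranilate transferase gene trp4 was lower in DIA60, HU60 and HU150 by values of -0.22 to -0.28. The largest value among the trp names belonged to the channel gene trp1322, at 0.67 in DIA60. The channel gene trp663, with SE of 0.26 to 0.27, passed no test.

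Proline synthesis from glutamate has 3 genes. The gamma-glutamyl phosphate reductase gene pro1 rose by 0.15 to 0.56, most in DIA60, and the glutamate 5-kinase gene pro2 by 0.11 to 0.37, most in HU150. The reductase gene of the last step, pro3, rose by 0.13 in DIA30 and was lower in DIA60 (-0.22), HU60 (-0.09) and HU150 (-0.12).

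The glutamate and glutamine genes held the highest and the lowest value among the members. The gene gdh1 (SPCC622.12c) encodes the NADP-specific glutamate dehydrogenase, which in yeasts makes glutamate from ammonium and 2-oxoglutarate. It stood at 15861 normalized counts in DIA30 and 26014 in DIA60, 15754 in HU60 and 11997 in HU150, against 10403 in control. The level in DIA60 was 2.50-fold that of the control (log2 fold change 1.32, SE 0.07, adjusted p = 4.73e-70, DESeq2), and HU150 was nearest to the control, at 0.21. The gene gdh2 (SPCC132.04c) encodes the NAD-dependent enzyme, which releases ammonium from glutamate. It stood at 1493 in DIA30 and 1958 in DIA60, 2299 in HU60 and 4369 in HU150, against 1220 in control. The level in HU150 was 3.58-fold that of the control (log2 fold change 1.84, SE 0.07, adjusted p = 6.12e-161, DESeq2), the largest value of any member, and it exceeded that in HU60 by 0.93 (SE 0.10, adjusted p = 7.47e-20, z-test).

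Between HU150 and DIA60, the later sample of each drug, the differences of the dehydrogenase genes had opposite signs. For gdh1 HU150 minus DIA60 was -1.12 (SE 0.10, adjusted p = 1.98e-25, z-test), and for gdh2 it was 1.16 (SE 0.10, adjusted p = 9.79e-32). The glutamine synthetase gene gln1 (SPAC23H4.06) stood at 4551 in DIA30 and 2771 in DIA60, 2711 in HU60 and 2733 in HU150, against 4630 in control. It was thus near the control in DIA30, at -0.02, and lower in the other treatments by -0.74, -0.77 and -0.76 on the log2 scale (SE 0.05 each, adjusted p at most 2.56e-46, DESeq2). The difference of HU60 and DIA60 was -0.03, with a 95% interval of -0.17 to 0.11.

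**Figure D3:**
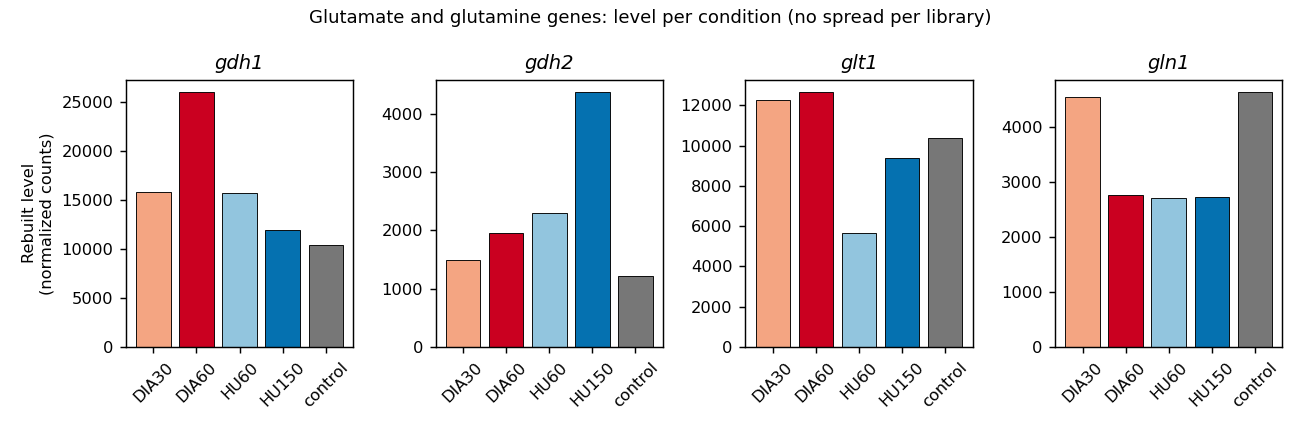
Rebuilt level, in normalized counts, of gdh1, gdh2, glt1 and gln1 in each condition, with a separate vertical axis from 0 for each gene and no error bars because no value per library was used. The tallest bars are DIA60 for gdh1 (26014 counts) and HU150 for gdh2 (4369 counts), the shortest for glt1 is HU60 (5659 counts), and gln1 is lower in DIA60, HU60 and HU150 than in control (4630 counts).

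The 4 iron-sulfur enzyme genes were all lower in HU60, beside 22.2% of all genes tested. Glutamate synthase (glt1, SPAPB1E7.07) stood at 12272 normalized counts in DIA30 and 12644 in DIA60, 5659 in HU60 and 9366 in HU150, against 10399 in control. Its value in HU60 was -0.88 on the log2 scale (SE 0.08, adjusted p = 7.59e-27, DESeq2), while it was higher in DIA30 (0.24) and DIA60 (0.28), and -0.15 in HU150 did not pass the test. The 3-isopropylmalate dehydratase gene leu2 (SPAC9E9.03) stood at 26139 in DIA30 and 22030 in DIA60, 13036 in HU60 and 15498 in HU150, against 19470 in control. It was higher in DIA30 (0.42) and DIA60 (0.18) and lower in HU60 (-0.58, SE 0.06, adjusted p = 1.32e-21, DESeq2) and HU150 (-0.33). These genes thus lay on opposite sides of the control in DIA and in HU60.

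The dihydroxy-acid dehydratase gene ilv3 (SPAC17G8.06c) stood at 22198 in DIA30 and 19507 in DIA60, 15023 in HU60 and 20879 in HU150, against 19583 in control. HU60 was the low one, at -0.38 (SE 0.05, adjusted p = 2.21e-11, DESeq2). The homoaconitate hydratase gene lys2 (SPAC343.16) stood at 10733 in DIA30 and 8656 in DIA60, 9345 in HU60 and 10842 in HU150, against 10234 in control. It was lower in DIA60 (-0.24) and in HU60 (-0.13, SE 0.05, adjusted p = 0.0217, DESeq2), and its fall in HU60 was small beside the others. Most other genes of the same paths were not lower in HU60. In leucine synthesis leu3 had 0.07 and leu1 0.25, and in lysine synthesis lys4 had 0.32 and lys12 0.26. The exceptions were ilv5 (-0.12), the transporter gene leu5 (-0.22) and gln1 (-0.77). Over the other 45 members, 22 were higher and 6 lower in HU60, beside 24.6% and 22.2% of all genes tested. Their median was 0.10, while the median of the 4 iron-sulfur enzyme genes was -0.48.

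**Figure D4:**
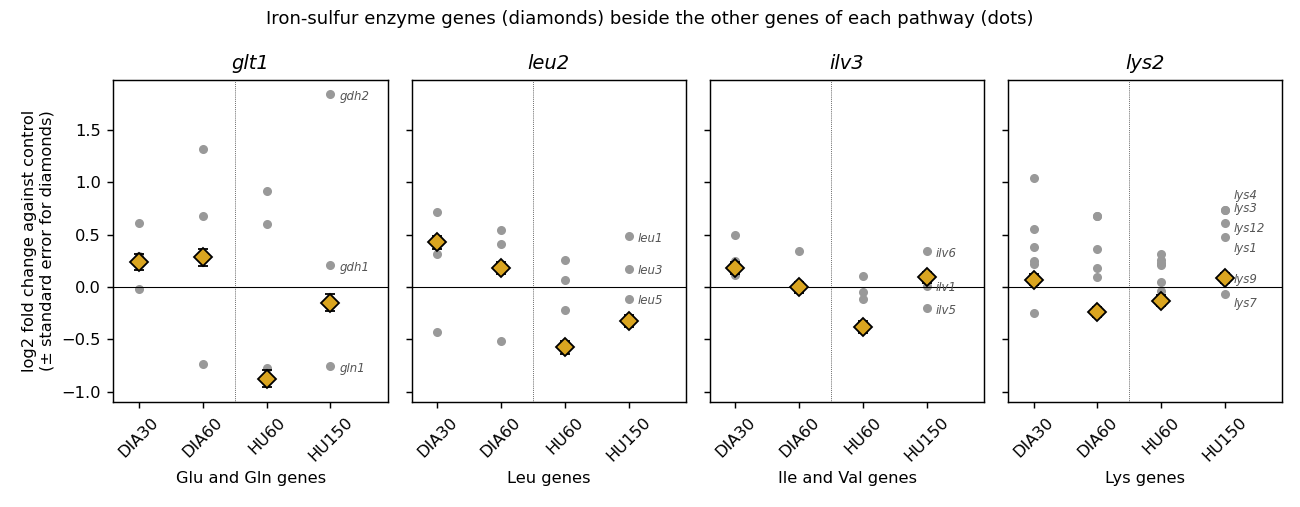
Log2 fold change against control of the iron-sulfur enzyme genes glt1, leu2, ilv3 and lys2 (diamonds, ± SE) and of the other genes with the same pathway name (grey dots, named at HU150) in DIA30, DIA60, HU60 and HU150. The diamonds are lowest in HU60 for glt1 (-0.88), leu2 (-0.58) and ilv3 (-0.38), and lowest in DIA60 for lys2 (-0.24).

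The fall of the iron-sulfur enzyme genes in HU60 did not last to the same extent. A rise from HU60 to HU150 was not particular to them. Of the 49 members, 29 were higher in HU150 than in HU60 (beside 11.1% of all genes), with a median difference of 0.24. In HU150 only leu2 of the 4 was lower than in control, and HU150 exceeded HU60 by 0.73 for glt1 (SE 0.11, adjusted p = 2.32e-09, z-test), 0.47 for ilv3 (SE 0.08, adjusted p = 1.43e-08), 0.25 for leu2 (SE 0.08, adjusted p = 0.0132) and 0.21 for lys2 (SE 0.07, adjusted p = 0.013). HU60 minus DIA60 was -1.16 for glt1 (SE 0.11, adjusted p = 6.22e-24), -0.76 for leu2 (SE 0.08, adjusted p = 6.75e-19) and -0.38 for ilv3 (SE 0.08, adjusted p = 3.22e-06). For lys2 the difference was 0.11, with a 95% interval of -0.03 to 0.25.

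A list of iron-sulfur enzymes of other pathways, cluster assembly factors and iron regulators had 15 measured genes. Of these, 2 were higher and 7 lower in HU60, and 8 were higher and 4 lower in HU150, beside 6 and 6 in DIA30 and 5 and 7 in DIA60. The 7 lower are 46.7% of the list, beside 22.2% of all genes in HU60 and 35.3% in DIA60, and in DIA30 40.0% were higher and 40.0% lower, beside 29.1% and 28.0%. The 5 higher in DIA60 (33.3%, beside 36.4%) and the 4 lower in HU150 (26.7%, beside 31.7%) were close to the shares of all genes. The 8 higher in HU150 are 53.3%, beside 33.1%, and the 2 higher of 15 in HU60 stand beside 24.6% of all genes. The median log2 fold change of the list was -0.13 in HU60 and 0.16 in HU150. The succinate dehydrogenase iron-sulfur subunit gene sdh2 was lowered in HU60, at -1.05. In DIA60 the Rieske protein gene rip1, of the cytochrome bc1 complex, was lowered at -1.27, and in DIA30 the scaffold gene isu1, on which clusters are assembled, was raised at 1.29. The gene php4, whose protein represses genes of iron-using proteins when iron is scarce, rose by 0.89 in DIA30 and 0.59 in DIA60, and by 0.54 in HU60 and 0.16 in HU150. Its part in the values of the 4 members was not tested.

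Within a drug, more members were lower than higher in DIA60 than in DIA30, and more were higher than lower in HU150 than in HU60. For DIA60 minus DIA30, 4 members were higher (beside 17.1% of all genes) and 17 lower (34.7% of the members, beside 21.0%), with a median difference of -0.03. The largest were gln1 at -0.72 (SE 0.07, adjusted p = 2.43e-21, z-test) and gdh1 at 0.71 (SE 0.10, adjusted p = 2.62e-10). For HU150 minus HU60, 29 of 49 members were higher (59.2%, beside 11.1% of all genes) and 3 lower (beside 14.6%), with a median difference of 0.24. Among those higher in HU150 than in HU60 were arg5 and lys3, each by 0.52, and gdh2. The gene glt1 was also higher than in HU60 but not above the control, and his1 and gdh1 were among the lower ones. By pathway, 7 of 10 arginine, 5 of 7 lysine and 5 of 7 histidine genes were higher in HU150 than in HU60.

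Between the drugs at 60 min, 7 members were higher in HU60 than in DIA60 (beside 29.4% of all genes) and 21 lower (42.9% of the members, beside 29.3%). The lowest z were those of glt1, leu2, arg5 (-0.78, SE 0.09), leu3 (-0.48) and aro2 (-0.44). The highest were those of aro7 (0.46), arg6 (0.28), his6 (0.34), arg82 (0.25) and leu5 (0.30). For HU150 minus DIA60, 18 members were higher (36.7%, beside 32.4%) and 10 lower (20.4%, beside 34.3%), with a median of 0.09. At the later HU time the share of higher members was thus close to that of all genes. The SE of these differences is too large, since it treats the control libraries of both comparisons as separate.

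**Figure D5:**
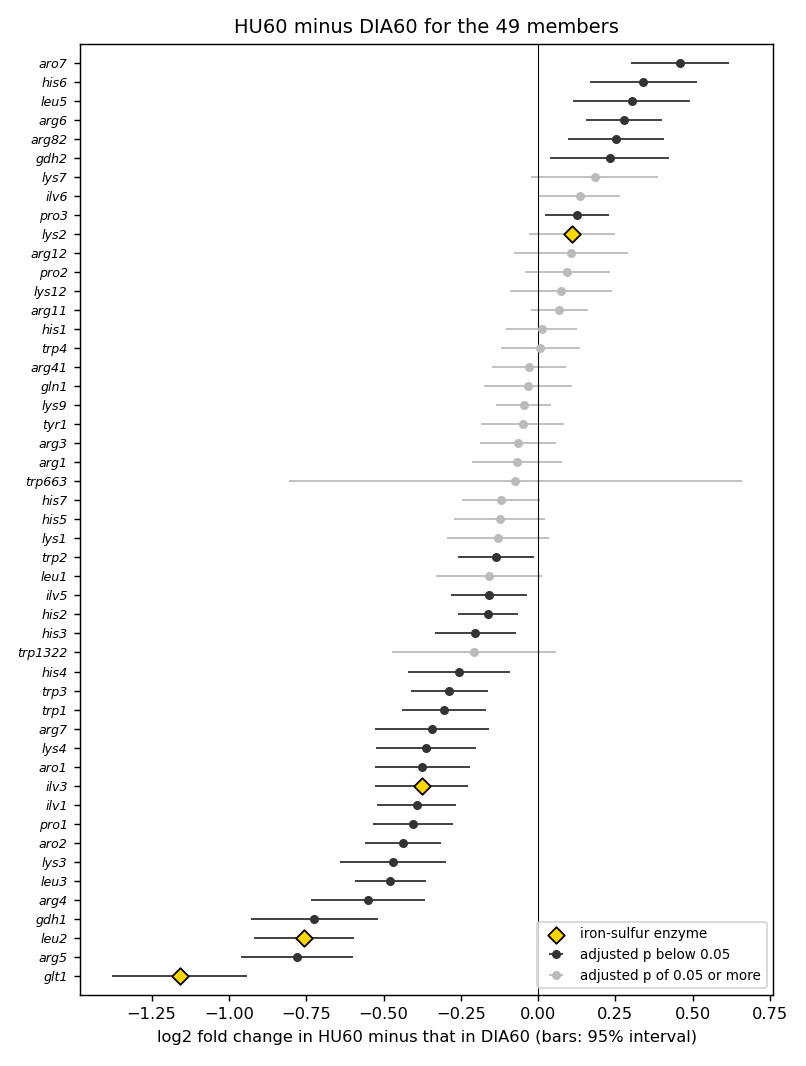
Log2 fold change in HU60 minus that in DIA60 for each member, sorted, with bars for the 95% interval; dark points passed the test and yellow diamonds are iron-sulfur enzyme genes. The lowest points are glt1 (-1.16), arg5 (-0.78) and leu2 (-0.76), and the highest is aro7 (0.46).

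Of the amino acid synthesis genes with other names, more were higher than lower in each treatment. Of 29 listed, 23 were measured, which include sir1 of the iron-sulfur list. In DIA30, 20 were higher (87.0%, beside 29.1% of all genes) and 1 lower, with a median of 0.32, and the phosphoglycerate dehydrogenase gene ser3, of the first step of serine synthesis, was raised at 1.22. In DIA60, 16 were higher (69.6%, beside 36.4%) and 5 lower (21.7%, beside 35.3%). In HU60, 11 were higher (47.8%, beside 24.6%) and 5 lower (21.7%, beside 22.2%). In HU150, 15 were higher (65.2%, beside 33.1%) and 6 lower (26.1%, beside 31.7%), with the aspartate aminotransferase gene caa1 raised at 1.20 and the sulfite reductase flavoprotein gene met10 lowered at -1.12. The met10 mRNA was higher in DIA60 (0.57) and lower in HU60 (-0.92), a difference of -1.49 (SE 0.08).

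The genes of the starvation signal went different ways. Of 9 measured, 6 were higher in DIA30 (1 lower), 3 in DIA60 (2 lower), 2 in HU60 (3 lower) and 4 in HU150 (4 lower). Of all genes tested, 29.1%, 36.4%, 24.6% and 33.1% were higher and 28.0%, 35.3%, 22.2% and 31.7% lower in the same order. The mRNA of fil1 had 0.06 in DIA30, -0.08 in DIA60 and -0.11 in HU60, none past the test, and was lower in HU150 (-0.36). The mRNA of gcn2 rose by 0.55 in DIA30 and 0.31 in DIA60, and by 0.36 in both HU treatments. Of the other eIF2 alpha kinases, hri2 was raised in DIA30 at 1.08 and hri1 lowered in HU150 at -1.05. Translation of fil1 and the activity of the kinases were not measured by these data. Of 9 genes of amino acid breakdown other than gdh2, 4 were higher in DIA30 (2 lower), 4 in DIA60 (2 lower), 4 in HU60 (1 lower) and 5 in HU150. Of 6 measured genes that feed these pathways with carbon or NADPH, 2 were higher in DIA30 (2 lower), 3 in DIA60 (1 lower), 3 in HU60 and 4 in HU150. Among them the glucose-6-phosphate dehydrogenase gene zwf1 was raised in DIA30 (1.18) and DIA60 (1.40).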

How the data were processed

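RNA was sequenced by BGI from strand-specific mRNA libraries. Per the labels and the paper's methods, the authors mapped reads with STAR 2.7.10a and SAMtools 1.3 to ASM294v2, counted them with HTSeq 2.0.1 and fitted DESeq2. For each treatment 1 table was deposited, with the log2 fold change that the authors fitted against control and its standard error. The deposited signal value is the count that the authors divided by size factors and averaged over all libraries. The deposited score is the Wald statistic that the authors computed. The deposited p-values were made by the authors from that statistic, raw and Benjamini-Hochberg adjusted. The percent values in the deposited statistics are GC contents (43.3% to 44.1%). These columns hold the authors' own comparisons with control, which were used as they stand and not refitted, as values per library were not used. The labels name 1 sample per condition. The 3 repetitions are the independent ones that the study's legend states.

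As a check, the Wald statistics were recomputed to within 1.56e-13, and readjusted p equalled the deposited ones to within 1.28e-15. The control level of a gene was rebuilt as 5 times its mean divided by 1 plus the sum of its 4 fold changes. Treatments were compared by a two-sided z-test on the difference of log2 fold changes, their squared standard errors being added, adjusted over 5134 genes and tested on simulated data. Python 3.11.15, numpy 2.4.6, scipy 1.17.1, pandas 2.3.3 and matplotlib 3.10.9 were used. Products came from RefSeq by locus tag (49 of 49 matched), whose assembly version differs, so no coordinates or sequences are given.

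Members and lists were chosen with earlier results of these data known. Named in any case were members past 2-fold or next to it, iron-sulfur enzymes, the largest change of each pathway, the 5 highest and 5 lowest z of HU60 minus DIA60, genes of other lists past 2-fold, and fil1, gcn2 and php4. Other members were described by pathway step. Alternatives were other size and p thresholds, a filter on a mean of at least 50, median centring, membership and rebuilt variances.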

Additional observations from a re-analysis of the deposited data

Results flagged for a closer look

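For 3 members the effect of HU and that of DIA, each against the same control, differed by at least 2-fold in a z-test of the difference. For HU60 minus DIA60, 258 of all 5134 genes were higher by that much and 138 lower, beside 0 and 1 of the 49 members. For HU150 minus DIA60 these were 316 and 181 genes, beside 1 and 1 of the members. In neither comparison was the share of members above that of all genes. The glutamate synthase gene glt1 had a difference of -1.16 on the log2 scale for HU60 minus DIA60, being lower in HU60 and higher in DIA60 than in control. The NADP-specific glutamate dehydrogenase gene gdh1 had -1.12 for HU150 minus DIA60. The NAD-dependent glutamate dehydrogenase gene gdh2 had 1.16 for HU150 minus DIA60. All of these belong to glutamate metabolism, and both dehydrogenase genes were higher than control in HU150 and DIA60.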

How the results depend on the processing

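Of 144 alternative values, 13 moved a count of members by over 1.5 times, or from or to 0. The 144 also hold medians and single genes, and 7 of the 13 came from the fold of at least 1.5, where 1 value did not move. A turn of direction was looked for only in single genes under median centring. That centring shifts values by 0.005 or less, so it could turn no gene past the test and says nothing on directions. With a fold of at least 1.5 in place of 2, the members raised were 5 in DIA30 and 10 in DIA60, 3 in HU60 and 12 in HU150. Those lowered were 1 in DIA60 and 2 each in HU60 and HU150. The shares of all genes at 1.5-fold were not computed, so these counts are not read as a response of the set. With a fold of at least 4, 0 were raised in DIA30, 0 in DIA60 and 0 in HU150. Without the 4 members annotated outside amino acid synthesis, 2 in place of 4 were lower in DIA30, since arg82 and leu5 are among them. The gene gdh2 was kept in that alternative. For DIA60 minus DIA30, rebuilt variances of the treated groups gave 7 higher members in place of 4, and an adjusted p below 0.01 gave 10 lower members in place of 17. Median centring and the filter on a mean of at least 50 moved 0 of their 64 and 12 values by that much.

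Leaving out each repetition in turn was not run, because no value per library was used. No paired analysis was possible because the columns carry no replicate numbers. Depth was alike in all libraries, and the SE limits what is seen: for trp663, with a mean of 31, it was 0.26 to 0.27.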
